A study of Mus musculus with 24 samples.

Results

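Tnc, Fabp7, Nes, Sox9, Ncan, Olig1, Sall3, Serpine2, Ccnd2 and Ckb are 10 protein-coding genes of radial glia and neural progenitors, and each was 1 of the 55335 gene rows of a mouse small RNA sequencing count table. They were chosen by name, from earlier readings of these same counts, as neural progenitor genes found in the progenitor libraries. Their difference between the cell types is therefore described here without a test. The table holds 24 libraries from 2 cell types and 6 Htt genotypes, with 2 libraries labelled as biological samples in each of the 12 groups. Mouse embryonic stem cells (mESC) were grown with serum and leukemia inhibitory factor over feeder cells (CF-1 IRR MEF, mouse embryonic fibroblasts). Neural progenitor cells (NPC) were derived from them in N2B27 medium and then kept with FGF and EGF on laminin. The genotypes were an Htt knockout (KO), the Htt wild type (WT) and 4 heterozygous Hdh CAG knock-in lines, labelled Q20, Q50, Q92 and Q111 by the length of the repeat. The growth protocol gives the repeat of the line titled Q92 as 89. Each repeat length is 1 line, so line and genotype cannot be told apart, and the labels do not say whether the 2 samples of a group came from separate cultures. P-values then measure only the spread between these samples, which may be technical.

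Radial glia are the elongated stem cells of the developing brain, which divide at the ventricle and give rise to neurons and later to glia. Cultured neural stem cells grown with FGF and EGF keep much of their gene expression, including intermediate filament and lipid carrier genes, a matrix of tenascin and proteoglycans, and transcription factors of the SOX, OLIG and SALL families. Embryonic stem cells are dividing pluripotent cells that have not yet entered the neural lineage. In a small RNA library, reads over such genes are short pieces of RNA from messenger RNAs beside the microRNAs that the assay is built for, so a count follows both the amount of the messenger and how it breaks into pieces.

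Htt, the targeted gene, had 2 and 3 counts in the KO mESC libraries against 8 in each WT mESC library, and 1 count in each KO NPC library against 9 and 2 in WT NPC, so the table checks the knockout label only weakly. Library totals ran from 642384 to 2360434 counts in mESC and from 342022 to 682113 in NPC, and protein-coding genes took 3.63 to 6.84% of the counts. Levels are given as counts, or as CPM, the counts scaled to a common library size after the library totals are adjusted by TMM, a method that lines up the bulk of the genes between libraries. A count of 3 in an NPC library was worth 4.58 to 9.47 CPM, so members below that level were near what the depth could show. The NPC libraries held no count of the 8 endoderm and mesoderm markers. Of 7 astrocyte markers, 6 had counts in NPC and 1, Gfap, had none. Together these 7 stood at 4.55 to 27.4 CPM in NPC and 1.04 to 7.85 CPM in mESC. The Q20 NPC libraries stood apart from the other 10 NPC libraries in 14 microRNA genes of pluripotent cells, with 201 and 233 counts against 1 in all the others together. In bulk RNA, fewer cells of a type and less RNA per cell cannot be told apart.

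The promoters of Tnc, Serpine2 and Ckb, all of them low in the Q20 NPC libraries, and of Fabp7, the member with the highest level per length, are shown so that their sequences can be set beside the counts. They come from RefSeq on GRCm38.p6 and run 5′ to 3′ on the gene's strand, from 250 bases before to 50 bases after the start. RefSeq's table matched 6 of the members. Capitals mark the motifs searched. Both strands were searched for the RBPJ core TGGGAA, the GC box GGGCGG, the TATA box TATAAA, the SOX core ACAAAG and its variant ACAATG, and a match on the opposite strand appears as its reverse complement. The Serpine2 and Fabp7 starts that RefSeq uses lie inside the genes as GENCODE draws them.
Tnc, chr4:64046966-64047265, minus strand: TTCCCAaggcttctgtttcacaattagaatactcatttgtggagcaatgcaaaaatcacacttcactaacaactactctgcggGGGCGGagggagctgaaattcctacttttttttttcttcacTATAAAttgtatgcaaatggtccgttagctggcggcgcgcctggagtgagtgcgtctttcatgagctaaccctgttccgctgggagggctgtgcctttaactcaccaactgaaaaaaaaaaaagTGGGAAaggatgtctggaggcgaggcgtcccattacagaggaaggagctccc
Serpine2, chr1:79858616-79858915, minus strand: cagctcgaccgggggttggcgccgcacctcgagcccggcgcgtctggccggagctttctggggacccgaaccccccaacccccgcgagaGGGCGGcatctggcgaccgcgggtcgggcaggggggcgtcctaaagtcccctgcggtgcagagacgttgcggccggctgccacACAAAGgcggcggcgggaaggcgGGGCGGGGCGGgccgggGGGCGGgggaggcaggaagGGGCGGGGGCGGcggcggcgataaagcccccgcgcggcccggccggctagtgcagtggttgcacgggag
Ckb, chr12:111672289-111672588, minus strand: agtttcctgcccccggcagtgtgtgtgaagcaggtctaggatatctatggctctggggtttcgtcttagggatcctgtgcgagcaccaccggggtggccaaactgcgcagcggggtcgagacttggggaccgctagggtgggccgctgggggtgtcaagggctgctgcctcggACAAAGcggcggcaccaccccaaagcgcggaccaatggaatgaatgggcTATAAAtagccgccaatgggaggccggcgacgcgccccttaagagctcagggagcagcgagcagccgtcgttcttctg
Fabp7, chr10:57784673-57784972, plus strand: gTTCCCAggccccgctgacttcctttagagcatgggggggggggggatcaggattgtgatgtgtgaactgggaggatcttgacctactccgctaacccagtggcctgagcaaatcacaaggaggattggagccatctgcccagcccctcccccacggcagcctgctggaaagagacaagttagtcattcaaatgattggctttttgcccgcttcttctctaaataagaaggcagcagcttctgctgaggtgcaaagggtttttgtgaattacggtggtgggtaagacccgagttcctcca
These 4 promoters differed in what they held. Tnc had 2 matches of TGGGAA, 1 of GGGCGG and 1 of TATAAA from the start shown, which is where the gene starts in GENCODE, and 1 of each from a second RefSeq start, not shown (chr4:64046887-64047186), while Serpine2 had 6 of GGGCGG, some sharing a base, and 1 of ACAAAG. Ckb had 1 match of ACAAAG and a TATAAA 28 bases upstream of the start, and Fabp7 had 1 of TGGGAA. None of these 5 motifs was in all of the 4. Of 32851 mouse promoters of this length, 25.6% held TGGGAA, 18.7% ACAAAG, 12.6% ACAATG, 35.7% GGGCGG and 13.6% TATAAA. A match is given as a description only.

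In the 12 mESC libraries the members were almost without counts, and in NPC all 10 were found in every library. The extracellular matrix and secreted members come first. Tnc, tenascin C, a large matrix glycoprotein of radial glia (ENSMUSG00000028364, GRCm38 chr4:63959785-64047015, minus strand), had 249 counts over the 12 NPC libraries and 0 in mESC. With 3 counts over all mESC libraries taken as the floor, its pooled NPC level was at least 226-fold higher. Ncan, neurocan, a chondroitin sulphate proteoglycan of the brain matrix (ENSMUSG00000002341, chr8:70093085-70120873, minus strand), had 114 counts in NPC and 2 in mESC, a ratio of levels of 155 with a 95% counting interval of 41.9 to 1295. Serpine2, protease nexin 1, a secreted inhibitor of thrombin and other serine proteases (ENSMUSG00000026249, chr1:79794197-79861180, minus strand), had 195 counts in NPC and 15 in mESC, a ratio of 35.3 with an interval of 20.9 to 64.4. All intervals here are exact, cover counting error only, and leave out the spread between libraries.

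Among the cytoplasmic members, Fabp7, the brain lipid-binding protein of radial glia (ENSMUSG00000019874, chr10:57784881-57788450, plus strand), was separated the most from mESC of those with a count there. It had 292 counts in NPC and 1 in mESC, a ratio of levels of 794 with a wide interval of 141 to 31462. Ckb, brain creatine kinase, which buffers ATP (ENSMUSG00000001270, chr12:111669361-111672338, minus strand), had 253 counts against 16, a ratio of 43.0 with an interval of 26.0 to 76.4. Nes, nestin, the intermediate filament protein used as a neural stem cell marker (ENSMUSG00000004891, chr3:87971078-87980451, plus strand), had 60 counts against 21, a ratio of 7.77 with an interval of 4.66 to 13.4. Nes was the member with the smallest ratio and the most mESC counts, which lay in 7 of the 12 mESC libraries, the highest being 6 in Q111 replicate 2 and 5 in Q20 replicate 1.

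Of the transcription factors, Olig1, a basic helix-loop-helix factor of the oligodendrocyte lineage (ENSMUSG00000046160, chr16:91269772-91271933, plus strand), had 108 counts in NPC and 0 in mESC, at least 97.9-fold higher against the same floor. Sox9, an SRY-box factor of neural stem cells and glia (ENSMUSG00000000567, chr11:112782224-112787760, plus strand), had 67 counts against 1, a ratio of 182 with an interval of 31.6 to 7301. Sall3, a zinc finger factor of the spalt family (ENSMUSG00000024565, chr18:80966376-80986771, minus strand), had 137 counts against 4, a ratio of 93.1 with an interval of 35.6 to 347. The cell cycle member Ccnd2, cyclin D2, which drives G1 progression with CDK4 and CDK6 (ENSMUSG00000000184, chr6:127125162-127152193, minus strand), had 225 counts against 15, a ratio of 40.8 with an interval of 24.2 to 74.1. Exons of Tnc, Olig1 and Ccnd2 share bases with antisense genes, and those genes had 0 counts in all 24 libraries. For 9 of the 10 members every NPC library lay above every mESC library, Nes being the exception, and 7.08% of the 904 genes tested in all libraries were separated in this way. Since the members were chosen on this contrast, nothing is read from that count. With library totals in place of TMM the ratios were larger, for example at least 295-fold for Tnc, and the median log2 difference of all genes moved from -0.02 to 0.32.

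**Figure D1:**
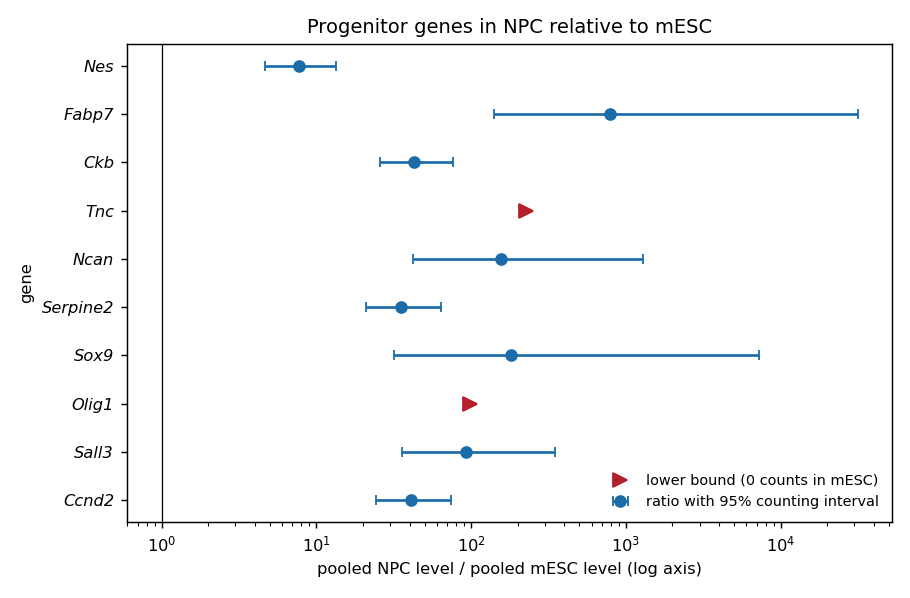
Ratio of the pooled NPC level to the pooled mESC level of each gene, on a log axis, with 95% counting intervals as bars and triangles for lower bounds where mESC had 0 counts. The ratios run from 7.77 for Nes to 794 for Fabp7, and all 10 lie above 1.

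Per kilobase of exon, with CPM taken of the pooled library totals, the members were spread widely in NPC. Fabp7, with only 1250 exonic bases, stood first at 42.5 CPM per kilobase. Ckb followed at 15.9, Olig1 at 9.08, Tnc at 5.82, Ccnd2 at 4.35, Serpine2 at 4.28 and Sall3 at 3.33. Sox9 at 2.95, Ncan at 2.88 and Nes at 1.70 CPM per kilobase came last. Olig1, with 2162 exonic bases, came after Fabp7 and Ckb on this scale, although its pooled level not divided by length was 19.6 CPM, against 45.3 CPM for Tnc.

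Summed over the 10 members, the NPC libraries fell into levels that mostly followed the line, with WT and KO overlapping. The sum was 302 and 324 CPM in WT, 339 and 301 in KO, 412 and 396 in Q50, and 425 and 445 in Q92. It was 153 and 150 CPM in Q20 and 265 and 210 in Q111, below each of the other 8 NPC libraries. The members did not share evenly in the low Q111 sums. Ccnd2, Sox9 and Ckb had higher means in Q111 than in WT (40.9 against 29.4, 16.4 against 9.06 and 48.8 against 43.2 CPM). The others were lower, most of all Tnc (16.8 against 55.3), Serpine2 (14.5 against 37.9) and Olig1 (11.2 against 29.5). The mESC sums ran from 0.497 to 9.39 CPM, so the lowest NPC library still lay far above the highest mESC library. As a share of protein-coding counts the members took 0.256 and 0.274% in Q20 and 0.461 and 0.367% in Q111, against 0.543 to 0.835% in the other 8.

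**Figure D2:**
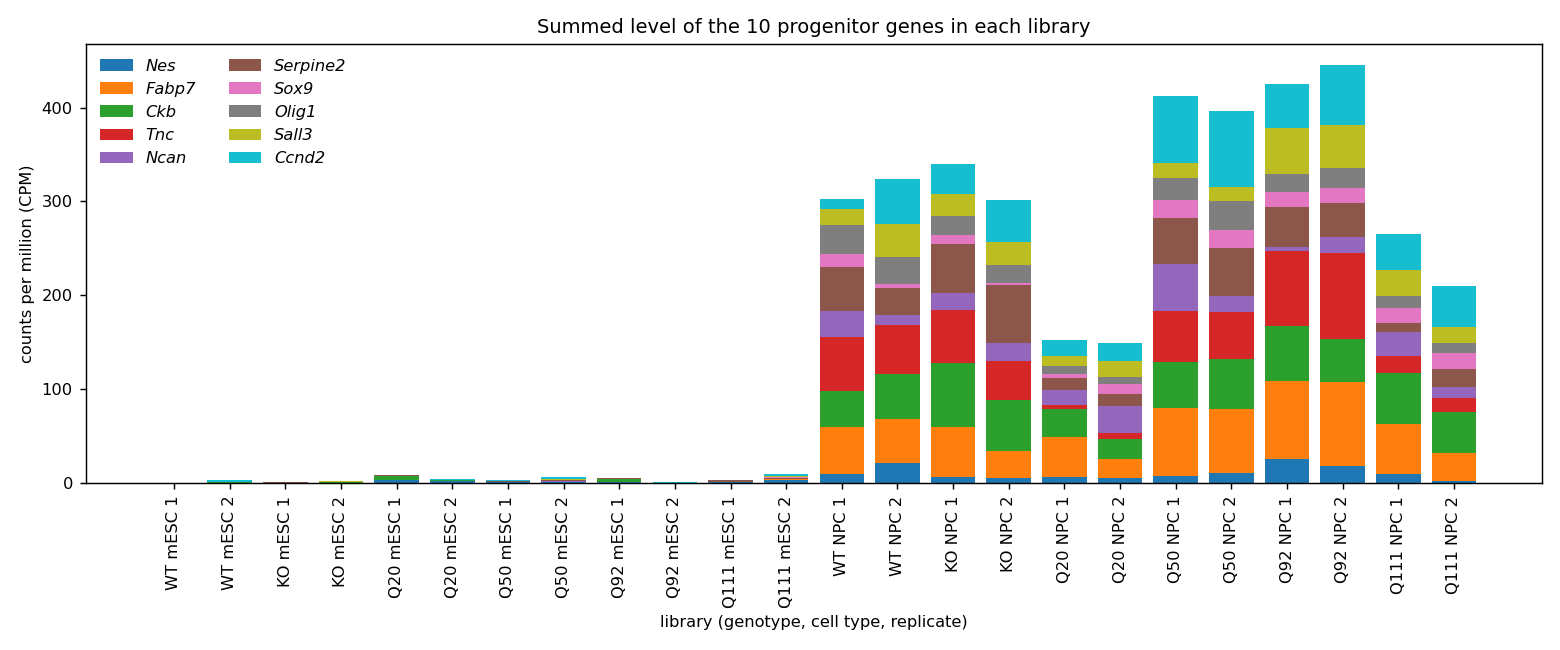
Summed CPM of the 10 genes in each of the 24 libraries, stacked by gene. The Q20 NPC libraries reach 153 and 150 CPM and the Q111 NPC libraries 265 and 210, while the other 8 NPC libraries lie between 301 and 445 and the mESC libraries stay under 10.

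Whether the members varied among the 6 NPC lines was tested with edgeR's quasi-likelihood test over all genes that passed a filter on low counts, with Benjamini-Hochberg adjustment and a threshold of 0.05. The filter kept 441 genes and 9 of the 10 members. Sox9 did not pass in any group, and Nes passed through 2 libraries only, 1 each of WT and Q92, so the counts that follow describe these 9 and not all 10. For Tnc, Olig1, Serpine2, Nes, Sall3 and Ccnd2 no Q20 library reached the filter's cutoff. For Tnc, Olig1, Serpine2 and Nes no Q111 library did. A low direction of these genes in those lines was thus partly set by the filter. An adjusted p under the threshold was found for 6 members, Tnc (2.99e-05), Serpine2 (0.00407), Olig1 (0.0282), Sall3 (0.0370), Ccnd2 (0.0408) and Fabp7 (0.0444), in a background where 37.2% of the genes were called. Ckb (adjusted p = 0.118 in edgeR), Nes (0.124) and Ncan (0.398) did not pass. Without the Q20 line only Tnc was called, at an adjusted p of 0.0122, and DESeq2's test called Tnc and Serpine2 alone. Leaving out 1 of 5 libraries, either of Q20, Q50 replicate 2 or either of Q92, also left those 2 genes, and leaving out either Q111 library left 3 members.

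Tnc was the member that varied most. Among its NPC libraries, WT had 38 and 24 counts, KO 25 and 17, Q50 23 and 18, and Q92 41 and 46. Q20 had only 2 and 3, and Q111 had 6 in each library. Both of these groups lay wholly below the other 8 libraries, and Q20 lay below Q111. This joint order, given below for Serpine2 and Olig1 too, was picked out after the data were seen. Its share among all genes tested was not counted, and the filter partly set it, so nothing is read from it. In CPM the order was Q92 at 85.7 ± 8.14 (SD, n = 2), WT at 55.3 ± 3.93, Q50 at 52.4 ± 2.48, KO at 49.3 ± 10.8, Q111 at 16.8 ± 3.04 and Q20 at 4.86 ± 0.876. WT, Q50 and KO overlapped their neighbours in this order, and the other steps did not.

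Serpine2 had the same pair of low lines. WT had 31 and 13 counts, KO 23 and 25, Q50 21 and 18, and Q92 22 and 18, whereas Q20 had 6 and 7 and Q111 had 3 and 8. In CPM, Q20 stood at 12.7 and 12.8 and Q111 at 9.47 and 19.5, all under the lowest of the other 8, which was 28.4 in WT replicate 2. Q20 and Q111 overlapped each other, and so did Q92 and WT, while KO at 56.8 ± 6.25 (SD, n = 2) and Q50 at 50.0 ± 0.843 stood above the rest. Ncan, the third matrix gene, did not share this order. WT had 18 and 5 counts, KO 8 and 8, Q20 8 and 16, Q50 21 and 6, Q92 2 and 9, and Q111 8 and 5. Every pair of neighbouring groups overlapped for Ncan, and the 2 libraries of a line ran as far apart as 49.4 and 16.9 CPM in Q50.

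For Olig1, WT had 20 and 13 counts, KO 9 and 8, Q50 10 and 11, and Q92 10 and 11, while each Q20 and Q111 library had 4. In CPM, WT stood at 29.5 ± 1.50 (SD, n = 2) and Q50 at 27.2 ± 5.23, and these overlapped. Q92 at 20.7 ± 1.68 and KO at 20.0 ± 0.642 overlapped each other, and below them stood Q111 at 11.2 ± 2.03 and Q20 at 7.89 ± 0.832 with no overlap. Each of these levels rests on few counts.

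Sall3 stood out in another line. It had 25 and 23 counts in Q92, while the other 10 NPC libraries had 5 to 16. In CPM, Q92 at 47.3 ± 2.14 (SD, n = 2) lay above WT at 25.9 ± 12.9, KO at 23.6 ± 1.21 and Q111 at 22.7 ± 8.02, which overlapped, and Q50 at 15.3 ± 1.71 and Q20 at 13.5 ± 4.13 overlapped at the lower end. Sox9 had 1 to 9 counts in every NPC library. In CPM, Q50 stood at 18.8 and 19.7, Q92 at 15.6 and 15.9, and Q111 at 15.8 and 17.1. WT stood at 13.7 and 4.37, KO at 9.11 and 2.45, and Q20 at 4.24 and 10.96, so Q50, Q92 and Q111 lay above the other 3 lines without overlap. Without the filter, Sox9 had an unadjusted p of 0.285 and an adjusted p of 0.988 in edgeR over 14269 genes, so this order was not detectable as a difference at this depth.

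For Fabp7, Q92 had 43 and 45 counts and Q50 had 31 and 24, while WT had 33 and 21, KO 23 and 12, Q20 20 and 11, and Q111 17 and 12. On the CPM scale, Q92 at 86.7 ± 3.97 (SD, n = 2) and Q50 at 70.2 ± 3.87 lay above the other 4 lines, which ran from WT at 48.2 ± 3.17 to Q20 at 31.2 ± 15.8 and overlapped from one to the next. For Ccnd2, Q50 had 30 and 29 counts and Q92 had 24 and 32, while KO had 14 and 18, Q111 12 and 18, and Q20 8 and 11. Q50 at 76.1 ± 7.74 CPM and Q92 at 55.2 ± 11.9 were the highest lines, with no overlap between them. WT stood at 29.4 ± 26.5 CPM, since its libraries had 7 and 22 counts, and this SD was the largest of any member in any group.

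Ckb had the smallest ratio between its highest and lowest NPC library among the members. WT had 25 and 22 counts, KO 30 and 22, Q50 21 and 19, Q92 30 and 23, and Q111 17 and 18. Q20 had 14 and 12, or 29.7 and 21.9 CPM, both below the other 10 libraries, of which WT replicate 1 was lowest at 38.2 CPM. Nes had 13 and 9 counts in Q92, 6 and 10 in WT and 1 to 4 in every library of the other 4 lines. Its order ran from Q92 at 21.6 ± 5.27 CPM (SD, n = 2) to KO at 5.87 ± 1.37 CPM, and every group overlapped the next.

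**Figure D3:**
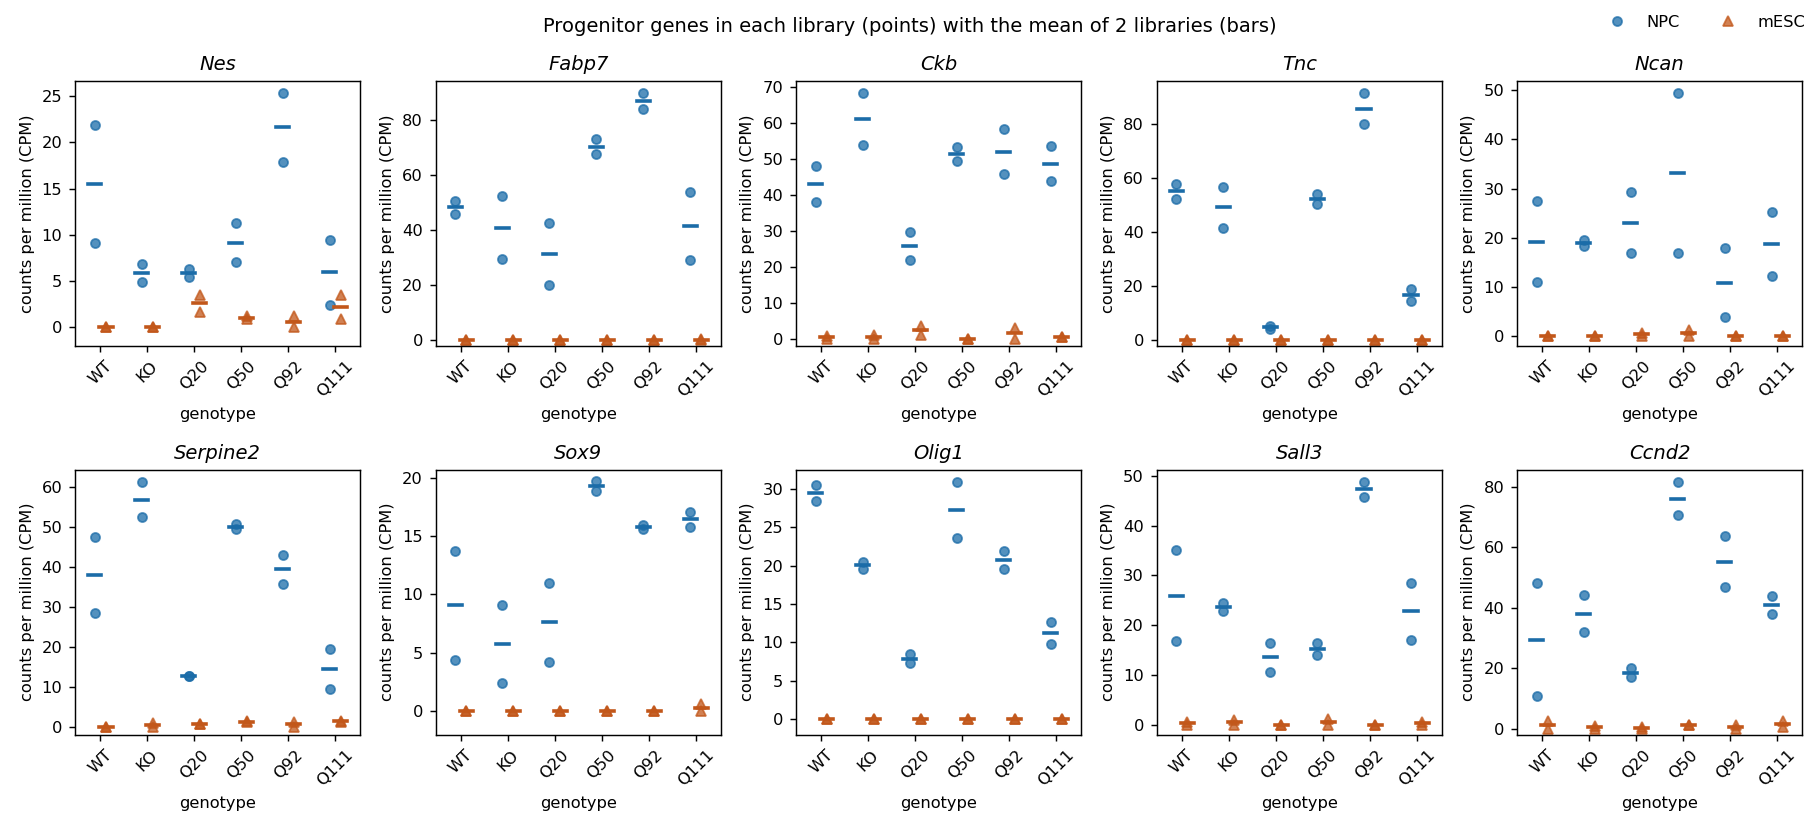
CPM of each gene by genotype in NPC (circles) and mESC (triangles), 1 point per library and a bar at the mean of 2 libraries. Tnc, Serpine2 and Olig1 share low points in Q20 and Q111, lines paired after the data were seen. Sall3 is highest in Q92, and Ncan shows no such order.

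Of the 5 lines set against WT, Q20 had the most members called. Tnc fell by 3.43 ± 0.46 on the log2 scale (SE, edgeR adjusted p = 4.26e-05), Olig1 fell by 1.88 ± 0.46 (adjusted p = 0.0135) and Serpine2 fell by 1.58 ± 0.44 (adjusted p = 0.0281). These 3 of 9 members stand against 4.08% of the 441 genes called lower, and no member was called higher. Since these 3 passed the filter through lines other than Q20, their low direction was partly set by it. With no filter only Tnc was called. The median over the 9 members was -0.85 on the log2 scale against 0.10 over all genes tested, a gap that the filter also bears on. Ncan lay above 0, at 0.21. Serpine2 and Olig1 lost the call without either Q20 library (adjusted p = 0.117 and 0.142 for Serpine2, 0.0600 and 0.104 for Olig1), and Serpine2 also without WT replicate 1 (0.156), while Tnc kept it in all 19 alternatives. With DESeq2's test these 2 genes had adjusted p of 0.0865 and 0.0965.

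Set against the mean of the other 5 lines, Q20 had 4 members called lower and none higher. Tnc fell by 3.16 ± 0.42 on the log2 scale (SE, edgeR adjusted p = 3.09e-05), Serpine2 fell by 1.50 ± 0.38 (adjusted p = 0.0111), Olig1 fell by 1.36 ± 0.41 (adjusted p = 0.0295) and Ckb fell by 0.98 ± 0.30 (adjusted p = 0.0304). In the background, 6.12% of the genes were called lower and 12% higher. Ccnd2 at -1.25 ± 0.43 (adjusted p = 0.0547), Fabp7 at -0.83 (0.117), Sall3 at -0.85 (0.164), Nes at -0.72 (0.501) and Ncan at 0.29 (0.727) did not pass. Both Q20 libraries lay below all of the other 10 for Tnc, Olig1 and Ckb, where 4.08% of the genes tested had this order. This contrast shares its Q20 libraries with the comparison with WT, so they are not separate evidence. Tnc, Serpine2 and Olig1 passed the filter through lines other than Q20 here too. With no filter the adjusted p in edgeR was 2.73e-05 for Tnc, 0.201 for Serpine2, 0.575 for Olig1 and 0.537 for Ckb. Tnc alone was called without either Q20 library, where the library left is assumed to vary like the other groups, and also with DESeq2's test and with no filter.

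Markers of other cells differed in the Q20 libraries. The 12 pluripotency messenger RNAs had 10 and 9 counts in the Q20 NPC libraries, from Lin28a, Sall4, Utf1 and Pou5f1, with the other 8 at 0, among them Nanog. The other 10 NPC libraries had 0 to 2 each, and the mESC libraries 48 to 139. The 14 pluripotency microRNA genes stood at 348 and 365 CPM in the Q20 NPC libraries, at most 2.29 CPM in the other NPC libraries and between 1214 and 3653 CPM in mESC. Mir302b alone gave 123 of 201 and 138 of 233 counts in Q20 NPC. It had 1049 and 1122 counts in Q20 mESC but 2 to 227 in the other mESC libraries, where Mir293 had 848 to 2594. The sums thus hold unlike mixes of genes and give no share of stem cell RNA. The fibroblast list had 11 and 3 counts in the Q20 NPC libraries and 1 to 6 in the others. The neuron list (8 to 31 counts) and the astrocyte list (3 to 18) overlapped between Q20 and the other NPC libraries in their sums. Map2 made up much of the neuron sum. Of the 11 neuron genes, 9 had a count in Q20 and 6 in the other 10 NPC libraries. Stmn2 had 4 and 3 counts in Q20, none in the other NPC libraries and 1 to 12 in mESC. The part of these cells' RNA in the low Tnc, Olig1, Serpine2 and Ckb levels was not tested.

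The Q111 line against WT had 1 member called. Tnc fell by 1.73 ± 0.40 on the log2 scale (SE, edgeR adjusted p = 0.0101), where 5.9% of the genes were called lower. Tnc, Olig1 and Serpine2 passed the filter through lines other than Q111, so their low direction was partly set by it. Olig1 at -1.40 ± 0.47 (adjusted p = 0.0621) and Serpine2 at -1.35 ± 0.46 (adjusted p = 0.0645) did not pass, and both passed beside Tnc when library totals replaced TMM. The Tnc call was lost without WT replicate 1 (adjusted p = 0.0683) and without either Q111 library (0.0820 and 0.170), and leaving out WT replicate 2 gave 3 calls, Tnc, Serpine2 and Ccnd2. The median over the members was -0.25 against 0.08 over all genes tested. The Q111 NPC libraries had no count of the 12 pluripotency messenger RNAs. Among genes of the oligodendrocyte lineage, Mbp, myelin basic protein, had 3 and 1 counts in Q20, 3 and 1 in Q111 and 0 in the other 8 NPC libraries. Cnp, an enzyme of myelinating cells, had 3 and 1 in Q20, 3 and 3 in Q111 and 0 to 1 in the other 8. Mog and Mag were at 0 in every NPC library. Pdgfra, a receptor of oligodendrocyte precursors, had 10 and 3 counts in WT, 2 and 2 in KO, 0 and 2 in Q20, 2 and 1 in Q50, and 0 in each Q92 and Q111 library. Cspg4 of the same lineage had 4 and 2 counts in WT, 1 in Q111 replicate 1 and none in the other NPC libraries. Sox10 had 1 count in Q20 replicate 2 and none in the others. The part of oligodendrocyte lineage RNA in the low Tnc, Olig1 and Serpine2 levels of these lines was not tested.

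In the other 3 lines no member was called against WT. KO had 0 of 9 members called by edgeR, 0 at an unadjusted p under 0.05 and 0 by DESeq2, where 1.36% of the genes were called. The member with the smallest p was Nes at -1.28 ± 0.77 (SE, log2; adjusted p = 0.526 in edgeR), followed by Ckb at 0.52 ± 0.34, and the median over the members was -0.10. Q50 had 0 called by edgeR and by DESeq2 and 1 at an unadjusted p under 0.05, Ccnd2 at 1.45 ± 0.48 (adjusted p = 0.0934 in edgeR), in a background of 6.58%. With the replicate number as a block, Ccnd2 was called in Q50, and it was also called in Q50 and in Q92 without WT replicate 2. Q92 had 0 called by edgeR and by DESeq2 and 2 at an unadjusted p under 0.05, Sall3 at 0.92 ± 0.40 (adjusted p = 0.120) and Fabp7 at 0.84 ± 0.38 (adjusted p = 0.126), although 18.8% of all genes were called in that line. The 5 contrasts with WT share the WT libraries.

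**Figure D4:**
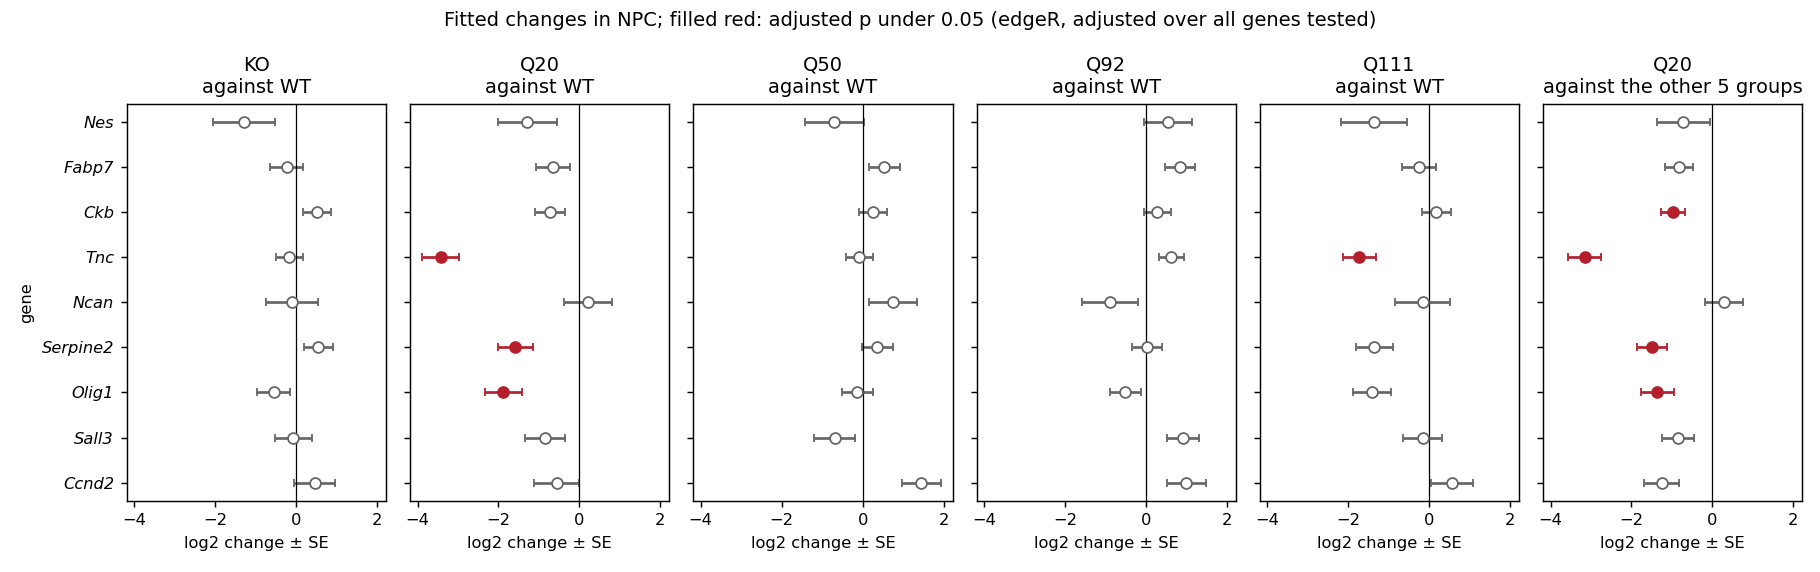
Log2 change with its standard error for the 9 genes tested, in each line against WT and in Q20 against the other 5 groups, with edgeR calls filled in red. Tnc is filled in Q20 and Q111, Olig1 and Serpine2 in Q20, and Ckb in Q20 against the other groups.

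The series title names the length of the CAG repeat, so the members were also fitted along it over the 8 knock-in NPC libraries. Of the 8 members tested, edgeR called 0, DESeq2 called 0 and 1 had an unadjusted p under 0.05, where 6.45% of 403 genes were called. That member was Sall3, at 0.16 ± 0.07 on the log2 scale per 10 repeats (adjusted p = 0.243). Tnc had the largest slope, 0.20 ± 0.14 (adjusted p = 0.520), and its counts along the repeat, 2 and 3, 23 and 18, 41 and 46, then 6 and 6, were not in one order. In mESC no member passed the filter among the 1766 genes tested, of which 0.0566% were called. Without the filter 8 members could be fitted there, 0 were called by edgeR and 1 had an unadjusted p under 0.05, and DESeq2, run on the filtered genes, gave no value for them.

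Across the 12 NPC libraries, Tnc, Olig1 and Serpine2 went together. Pearson's r of log2 CPM was 0.88 between Tnc and Olig1, 0.81 between Tnc and Serpine2, and 0.80 between Olig1 and Serpine2. Another pair was Nes and Sall3, at 0.74, which share their high Q92 libraries, and Tnc also followed Ckb at 0.73 and Fabp7 at 0.72. Ncan was negative with each of the other 8 members tested, from -0.03 with Olig1 to -0.52 with Sall3. These values describe 12 libraries that share lines, depth and scaling. Over the 8 libraries of WT, KO, Q50 and Q92, a setting chosen after seeing the data, r was -0.26 between Tnc and Olig1, -0.47 between Tnc and Serpine2 and -0.28 between Olig1 and Serpine2, so their likeness over the 12 rests on the Q20 and Q111 libraries. Over those 8 libraries Nes and Sall3 stood at 0.74 again and Tnc and Fabp7 at 0.81. Tnc and Ckb stood at -0.09, and Ncan turned positive with Olig1 (0.24) and Serpine2 (0.37). Among 440 genes, those most like Tnc were Olig1, Nfib (0.82), a nuclear factor I family member, and Serpine2. Those most like Fabp7 were Vim (0.81), the filament protein vimentin, Zfp871 (0.79), a zinc finger gene, and Gm22748 (0.76), a small nucleolar RNA gene. For Ckb they were Map4k4 (0.83), a kinase gene, Mir16-1 (0.82) and Mir9-1 (0.78), which encode microRNAs.

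**Figure D5:**
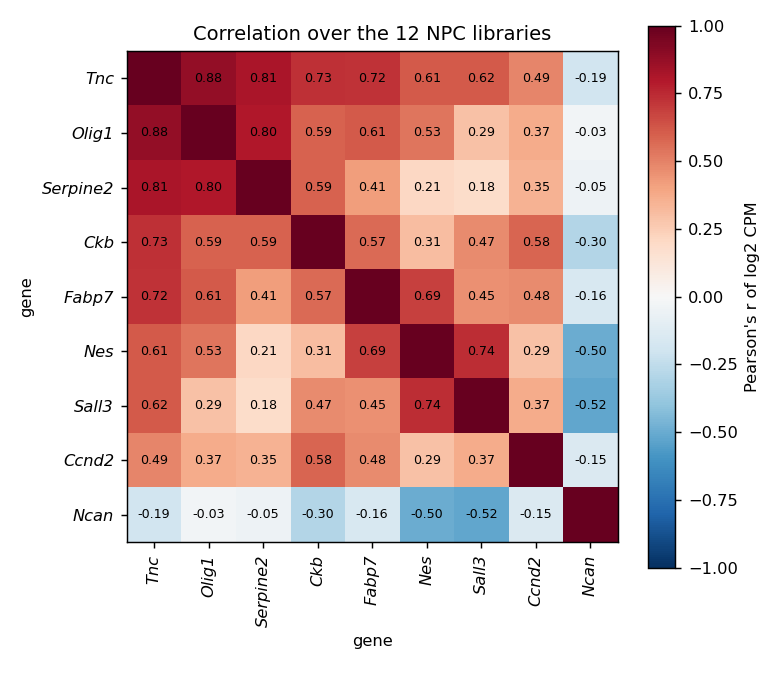
Pearson's r of log2 CPM between the 9 genes tested in NPC, over 12 libraries, from blue (negative) to red (positive). Tnc, Olig1 and Serpine2 form a block at 0.80 to 0.88, and Ncan is negative with all others.

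Other genes of the same roles were followed through 5 lists of 106 genes that are not members. In NPC against mESC, 25 of them passed the filter, and edgeR called 22 higher and 2 lower in NPC, where 30.4% of 904 genes were called higher and 28% lower. The median over the 25 was 3.08 on the log2 scale, against -0.02 over all genes tested. The lists were written with results of these libraries known, so their counts are not independent evidence of a direction. Of the 27 matrix and surface genes 10 were tested and were called higher. Among the other 17, which did not pass the filter, Itga6, an integrin subunit with 24 counts in NPC and 149 in mESC, had a pooled ratio of 0.438. Mdk, a growth factor with 2 and 20, had a ratio of 0.272. Most of the 17 had a higher pooled level in NPC, such as Bcan with 33 and 1 (ratio 89.7) and Ednrb with 42 and 0. A gene that is high in NPC alone could pass the filter through NPC, so the direction of the genes tested is partly set by it. Examples are Ptprz1, a phosphatase receptor that binds tenascins, Slc1a3, the glial glutamate transporter, and Gpm6b, a membrane glycoprotein. Ptprz1 rose by 7.72 ± 0.38 on the log2 scale (SE, adjusted p = 2.72e-12 in edgeR), Slc1a3 by 3.34 ± 0.23 (4.10e-11) and Gpm6b by 6.61 ± 0.44 (1.87e-10). Over all mESC libraries Ptprz1 had only 3 counts and Gpm6b 2, so the sizes of their rises are uncertain. Of the 4 radial glia cytoplasm genes tested 3 rose, with Vim at 3.87 ± 0.30 and Dbi, a carrier of acyl-CoA, at 2.68 ± 0.53, a call lost without KO NPC replicate 1 (1.51, adjusted p = 0.9998), while the metallothionein Mt2 fell by 2.66 ± 0.53. Of the 7 transcription factors tested 6 rose, with Sox4 at 3.34 ± 0.28, Nfib at 4.17 ± 0.38 and Nfia, with 2 counts in mESC, at 5.62 ± 0.55. Sox2, which pluripotent cells also express, fell by 0.65 ± 0.26 (adjusted p = 0.0380). Transcription factors that did not pass the filter went both ways, such as Sall1 with 22 counts in NPC and 93 in mESC (ratio 0.643) and Hes5 with 39 and 0. Of the G1 genes, Ccnd1, cyclin D1, rose by 2.98 ± 0.37 (adjusted p = 2.75e-07) and Cdkn1a, a CDK inhibitor, by 2.97 ± 0.35, while Cdk4 at 0.63 ± 0.31 did not pass (0.0870). Among G1 genes that did not pass the filter, Mycn had 0 counts in NPC and 100 in mESC, and Ccne1 3 and 48 (ratio 0.170). Myc, with 44 and 24, had a ratio of 4.98. Lrp1, a receptor that takes up serpin complexes, rose by 1.32 ± 0.30, a call lost with no filter (0.74, adjusted p = 0.198), and was the 1 gene tested of the serpin and protease list. Among the others of that list, Mmp2 had 1 count in NPC and 23 in mESC and Plaur 0 and 9, while Plat had 39 and 3.

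Within NPC, 19 of these genes were tested among the 6 lines and 6 were called by edgeR, Vcan, Slc1a3, Vim, Nfib, Ccnd1 and Cdkn1a, against the 37.2% of all genes. In Q20 against the other 5 lines, Olig2, the partner of Olig1, fell by 2.70 (adjusted p = 0.0149) and Ccnd1 fell by 2.31 (adjusted p = 0.0129). Vcan, versican, a proteoglycan related to neurocan, rose by 1.25 (adjusted p = 0.0346). Olig2, with 68 counts in NPC and 0 in mESC, thus moved in Q20 in the direction of Olig1, and Vcan went the other way from Tnc. The Olig2 change rests on 1 count in each Q20 library. Its test of any difference among the NPC lines did not pass (adjusted p = 0.0608 in edgeR). No Q20 library reached the filter's cutoff for Olig2 or Ccnd1. Vcan reached it in both Q20 libraries and, among the other lines, in KO replicate 1 only. The direction of these genes in Q20 was thus partly set by the filter. Ccnd1 had 1 and 6 counts in the Q20 NPC libraries, which overlapped WT NPC with 3 and 10 counts.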

How the data were processed

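The values deposited by the authors are raw gene counts from 24 small RNA libraries. Per the labels' protocols, reads were single-end from an Illumina HiSeq. The submitters' processing notes name CASAVA 1.8, STAR, HTSeq and GRCm38.p6, while trimming, the strand setting and which reads were counted are not given in the sources used here. Reads of messenger RNA in such libraries are few, which limits the precision of every value. The 4 columns named Q89 were taken as the samples titled Q92, since the growth protocol gives 89 repeats. Of 55335 identifiers, 55154 matched GENCODE M21 (GRCm38), which gave symbols and positions, and all 10 members matched 1 row each.

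The members, the lists of other genes and the contrast of Q20 with the other lines were chosen with earlier results of these data known. All members are named, and from each list at most 3 tested genes with the smallest p in NPC against mESC. Genes called in Q20 and some genes on either side of the direction of their list are named too, and these were chosen after their values were seen. Counts were fitted with edgeR 4.0.16 (quasi-likelihood, TMM, filterByExpr set to at least 10 counts and a total of 15) in R 4.3.3, on the 12 NPC or 12 mESC libraries or on all 24, with Benjamini-Hochberg adjustment over all genes tested. The standard error is the log2 change divided by the square root of the test's F. It can understate counting error where a group has few counts, as for Tnc in Q20 or Ptprz1 in mESC. Correlations used log2 CPM with a prior count of 2, for members with a mean of at least 20 counts where like genes are named. The scripts were tested on simulated data. Of the markers and motifs searched, 1 gene and 1 motif are not reported here. Alternatives were DESeq2 1.42.0 (its test and its size factors), library totals, protein-coding genes alone, no filter, the 4 libraries compared alone, a replicate block, no Q20 line, and each library left out.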

Additional observations from a re-analysis of the deposited data

How the results depend on the processing

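Members called among the NPC lines numbered 6, and 2 with no filter, 2 with the DESeq2 test, 1 without the Q20 line and 2 to 5 with each library left out. In Q20 against WT 3 became 1 with no filter, 1 with the DESeq2 test and 1 to 3 with a library left out, and in Q20 against the other lines 4 became 1, 1 and 1 to 6. In Q111 against WT 1 became 3 with library totals, 0 with only the 4 libraries compared and 0 to 3 with a library left out. In Q50 and in Q92 against WT 0 became 0 to 1 with a library left out. Other progenitor genes called higher in NPC numbered 22, 34 with no filter and 25 to 30 with a library left out, where the filter needs only 1 library and tests more genes. Where not stated above, the cause was not tested. None of the members' called fold changes reversed its direction, and neither did those of the list genes named for the smallest p in NPC against mESC. This does not cover changes that were not called, the CAG slopes, Sox2 or the list genes named in Q20. The correlations of Tnc with Olig1 and Serpine2 turned negative without the Q20 and Q111 lines. Counts over all genes moved too, for the NPC lines from 164 to 37 among protein-coding genes alone, 114 with no filter, 88 without the Q20 line and 100 to 227 with a library left out.

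The replicate numbers of the labels were checked as pairs. Deviations of same-numbered NPC libraries correlated at -0.08 to 0.39 over 15 pairs of groups, 5 of them over 0.1, and those of mESC at -0.00058 to 0.51, with 10 over 0.1. Not every pair was over 0.1 in either cell type, so the numbers were not taken as pairing, although each of the 6 groups was on average closer to its own number in both. With a replicate block, 6 members were called among the NPC lines, 3 in Q20 against WT, 5 in Q20 against the other lines and 1 in Q50 against WT, Ccnd2, while calls among all mESC genes went from 1 to 29 of 1766. No 2 libraries of a group agreed within sampling noise. Members with few counts, Nes, Sox9 and Ncan above all, could show only large differences at this depth.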
